A study of Mus musculus with 217 samples.

Results

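The Obox genes (oocyte-specific homeobox) and the Oog genes (oogenesin) were followed through the RNA of mouse oocytes and of the granulosa cells around them. The genes were chosen by symbol: Obox1, Obox2, Obox3, Obox5 and Obox6, and Oog1, Oog2, Oog3 and Oog4. All 9 symbols had a row among the 53619 genes of the count tables, and none was missing.

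Obox genes encode homeodomain proteins, transcription factors that bind DNA through a homeobox, and they lie as a tandem cluster on mouse chromosome 7. Mouse embryos that lack several Obox genes together fail to activate their genome properly after fertilisation, and their messages are counted among the maternal stores of the egg. Oog genes belong to the wider PRAME-like family, whose proteins carry leucine-rich repeats, and they are expressed in female germ cells.

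RNA was sequenced by Smart-seq2, a method for very small inputs that copies whole polyadenylated messages. The main set held single metaphase II oocytes of a mixed C57BL6/129 background in 10 groups. At 2 months there were 15 Tet2 knockout (YKO) and 18 wild-type (YWT) oocytes. At 6 months there were 20 knockout oocytes on resveratrol (MKOR), 20 knockout controls (MKOC), 14 wild-type oocytes on resveratrol (MWTR) and 20 wild-type controls (MWTC). At 10 months the same 4 groups held 15 (OKOR), 15 (OKOC), 14 (OWTR) and 20 (OWTC) oocytes. Resveratrol, a plant polyphenol, was given in drinking water at 30 mg per L, and controls drank water with its solvent DMSO. Tet2 is a DNA demethylation enzyme, and the sources used here name no promoter or cell type for its deletion. Pools of granulosa cells came as 3 libraries in each of 6 groups of the same background: 10-month knockout on resveratrol, 10-month knockout control, 10-month wild type on resveratrol, 10-month wild-type control, 2-month knockout and 2-month wild type. A further set of C57BL6 oocytes held 10 on resveratrol at 10 months, 6 controls at 10 months and 11 controls at 6 months, with no genotype given, and 1 oocyte in no group.

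Oocyte libraries held 3386039 to 8775154 counts, C57BL6 libraries 3470831 to 11358927 and granulosa pools 470647 to 20537935. Tet2 itself was at 0 to 4.86 CPM (counts scaled to the same total in every library, median 0.898) in 85 knockout oocytes, against 0 to 6.17 CPM (median 2.81) in 86 wild-type oocytes. In the granulosa pools it was at 8.01 to 20.9 CPM (median 12.9) in 9 pools labelled knockout, against 4.69 to 15.6 CPM (median 12.7) in 9 wild-type pools, so those pools are called knockout-labelled. Of 14 granulosa markers, Serpine2, Cyp19a1 and Nr5a2 had counts in every oocyte of the main set, while the defining markers Fshr, Amh, Foxl2 and Amhr2 were at a median of 0 CPM, with a count in 17, 7, 9 and 12 oocytes. Kitl had counts in 167 and Cyp11a1 in 152 oocytes, at medians of 2.15 and 0.918 CPM, and Inha, Inhba, Fst, Hsd17b1 and Gja1 in 24 to 51 oocytes. The highest single oocyte had 169 CPM of Cyp11a1, 119.5 of Inha, 76.9 of Gja1 and 51.8 of Fst, so some oocytes held granulosa-marker message.

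By GENCODE vM21 on GRCm38, the 5 Obox genes lie within 0.451 Mb of chromosome 7. Obox2 lies at chr7:15388721-15398545, Obox1 at chr7:15388948-15556866 and Obox5 at chr7:15750131-15759800, all on the plus strand. Obox3 lies at chr7:15479825-15639902 and Obox6 at chr7:15833241-15839678, both on the minus strand. Oog2 (chr4:144190719-144196934, plus strand), Oog3 (chr4:144157557-144162663, minus) and Oog4 (chr4:143437164-143450324, minus) lie within 0.760 Mb of chromosome 4. Oog1 stands apart on chromosome 12 (chr12:87602688-87608850, plus). All of them are annotated as protein coding.

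The promoters are shown to describe sequence that members of a family share, and no link to their levels was tested. Likeness is not limited to promoters. Over aligned bases the Obox1 transcript was 99.2% identical to that of Obox2, 91.0% to that of Obox5 and 85.1% to that of Obox3. RefSeq promoter windows on GRCm38.p6, from 250 bases before to 50 bases after the annotated start, were given for 8 of the 9 members and for Obox7, an Obox gene outside the 9. Each sequence reads 5′ to 3′ on the strand of its gene. Capitals in the 3 Obox sequences mark an identical run of 42 bases, found by comparison of these promoters after they had been seen. The windows are chr7:15547007-15547306 on the plus strand for Obox1, chr7:15750120-15750419 on the plus strand for Obox5 and chr7:15639728-15640027 on the minus strand for Obox3. Starts are those of RefSeq, and the Obox1 window lies well inside the longer span that GENCODE gives for Obox1.
Obox1: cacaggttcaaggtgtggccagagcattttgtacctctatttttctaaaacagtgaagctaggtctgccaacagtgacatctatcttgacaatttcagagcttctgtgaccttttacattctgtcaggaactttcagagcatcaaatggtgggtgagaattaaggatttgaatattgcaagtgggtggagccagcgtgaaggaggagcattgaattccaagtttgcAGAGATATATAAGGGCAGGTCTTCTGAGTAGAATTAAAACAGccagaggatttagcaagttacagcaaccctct
Obox5: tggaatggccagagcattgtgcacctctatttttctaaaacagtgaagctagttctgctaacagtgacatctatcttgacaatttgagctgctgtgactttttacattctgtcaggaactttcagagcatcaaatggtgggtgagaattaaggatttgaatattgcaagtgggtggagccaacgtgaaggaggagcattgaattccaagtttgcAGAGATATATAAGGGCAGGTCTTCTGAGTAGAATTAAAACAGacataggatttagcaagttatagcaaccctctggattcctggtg
Obox3: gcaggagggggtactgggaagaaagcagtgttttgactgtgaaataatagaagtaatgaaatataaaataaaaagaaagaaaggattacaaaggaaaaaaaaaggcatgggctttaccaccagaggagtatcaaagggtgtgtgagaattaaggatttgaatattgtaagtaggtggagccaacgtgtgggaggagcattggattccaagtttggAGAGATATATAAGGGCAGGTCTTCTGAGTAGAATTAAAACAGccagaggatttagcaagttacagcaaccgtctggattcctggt
Among 32851 promoters of the same length, 4 held that run, those of Obox1, Obox3, Obox5 and Obox7. Over aligned bases the Obox1 promoter was 95.5% identical to that of Obox5, 93.7% to that of Obox7 and 74.3% to that of Obox3. The windows of Obox1 and Obox2 aligned at an offset, and their 203 aligned bases were 100% identical.

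The Oog promoters share a shorter run of 11 bases, in capitals below, which 17 of the 32851 promoters held. Oog3, the most abundant Oog transcript, and Oog1, the most variable, are shown (chr4:144162602-144162901, minus strand, and chr12:87602415-87602714, plus strand).
Oog3: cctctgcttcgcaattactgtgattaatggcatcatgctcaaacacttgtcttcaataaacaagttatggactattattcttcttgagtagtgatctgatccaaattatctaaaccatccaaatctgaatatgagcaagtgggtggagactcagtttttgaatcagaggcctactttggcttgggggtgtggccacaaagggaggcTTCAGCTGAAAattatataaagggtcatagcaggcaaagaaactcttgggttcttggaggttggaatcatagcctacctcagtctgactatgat
Oog1: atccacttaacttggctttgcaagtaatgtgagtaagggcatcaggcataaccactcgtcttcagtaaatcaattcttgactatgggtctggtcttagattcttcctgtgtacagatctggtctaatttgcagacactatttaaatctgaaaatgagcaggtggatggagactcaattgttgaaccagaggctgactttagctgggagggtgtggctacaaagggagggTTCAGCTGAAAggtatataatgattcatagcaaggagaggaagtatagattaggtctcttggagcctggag
Pairs of Oog promoters were 75.2% to 83.6% identical over aligned bases. Motifs were searched on both strands in the 8 member promoters and that of Obox7. TATATAA, picked after the sequences had been seen, occurred in 7 of the 9 promoters and in 3.24% of all promoters. It lay within the shared Obox run and just after the shared run of Oog1, Oog2 and Oog3. The other counts were 8 of 9 for the E-box CANNTG against 72.3% of all promoters, 3 of 9 for TATAAA against 13.6%, 2 of 9 for TAATTG against 8.0%, 1 of 9 for GGATTA against 7.06% and 0 of 9 for TAATTA against 5.29%. In Oog2 and Oog3 the TATAAA and TATATAA matches overlap.

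Likeness of the transcripts bears on how the counts can be read. Reads were 150 bases long, and 31.4% of 150-base windows of the Obox1 transcript and 32.7% of those of Obox2 occur unchanged in the other gene. The same holds for 88.4% of Oog1 windows, shared with the gene model Gm2042, for 14.1% of Oog2 windows, 10.7% of Obox3 windows (shared with the pseudogene Obox3-ps3) and 8.16% of Oog3 windows. Obox5, Obox6 and Oog4 shared none. Gm2042 and the other gene models that share windows with Oog1, Oog2 or Oog3 have no row of their name in the count tables. Obox1, Obox2 and Obox3-ps3 each have a row. Obox1 and Obox2 also share 59 exon bases on the same strand by GENCODE, whose Obox1 span begins within that of Obox2. The separate levels of Obox1 and Obox2, and the source of Oog1 reads, are therefore uncertain.

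In the main set the 9 genes together made up 0.635% to 2.48% of all counts of an oocyte (median 1.3%). Levels are given first as CPM per kb of transcript, so that genes can be compared. Obox2 had a median of 2150 CPM per kb, Oog3 1811, Obox5 1732 and Obox1 1583, and these are the abundant members. Oog1 followed with 219, Oog4 with 123 and Oog2 with 88.6 CPM per kb. Obox3 had 5.72 CPM per kb. Obox6, which lies in the same cluster, was at 0, with no count in 115 oocytes, a count in 56 and 173 counts in all. The ranges of the 4 abundant members overlapped, and their order does not hold beyond the spread between oocytes. By mean CPM over the main set, Oog3 was the 25th most abundant row of the table, Obox5 the 26th, Obox2 the 27th and Obox1 the 43rd. In the 27 grouped C57BL6 oocytes the sum of the 9 genes was 0.746% to 2.12% (median 1.62%). There Obox1, Obox2 and Obox5 had medians of 2388, 3406 and 2275 CPM per kb and Oog3 had 1247. Oog1 was at 81.3 CPM per kb in C57BL6 oocytes. Strain and table differ together between these sets, so they cannot be told apart.

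**Figure D1:**
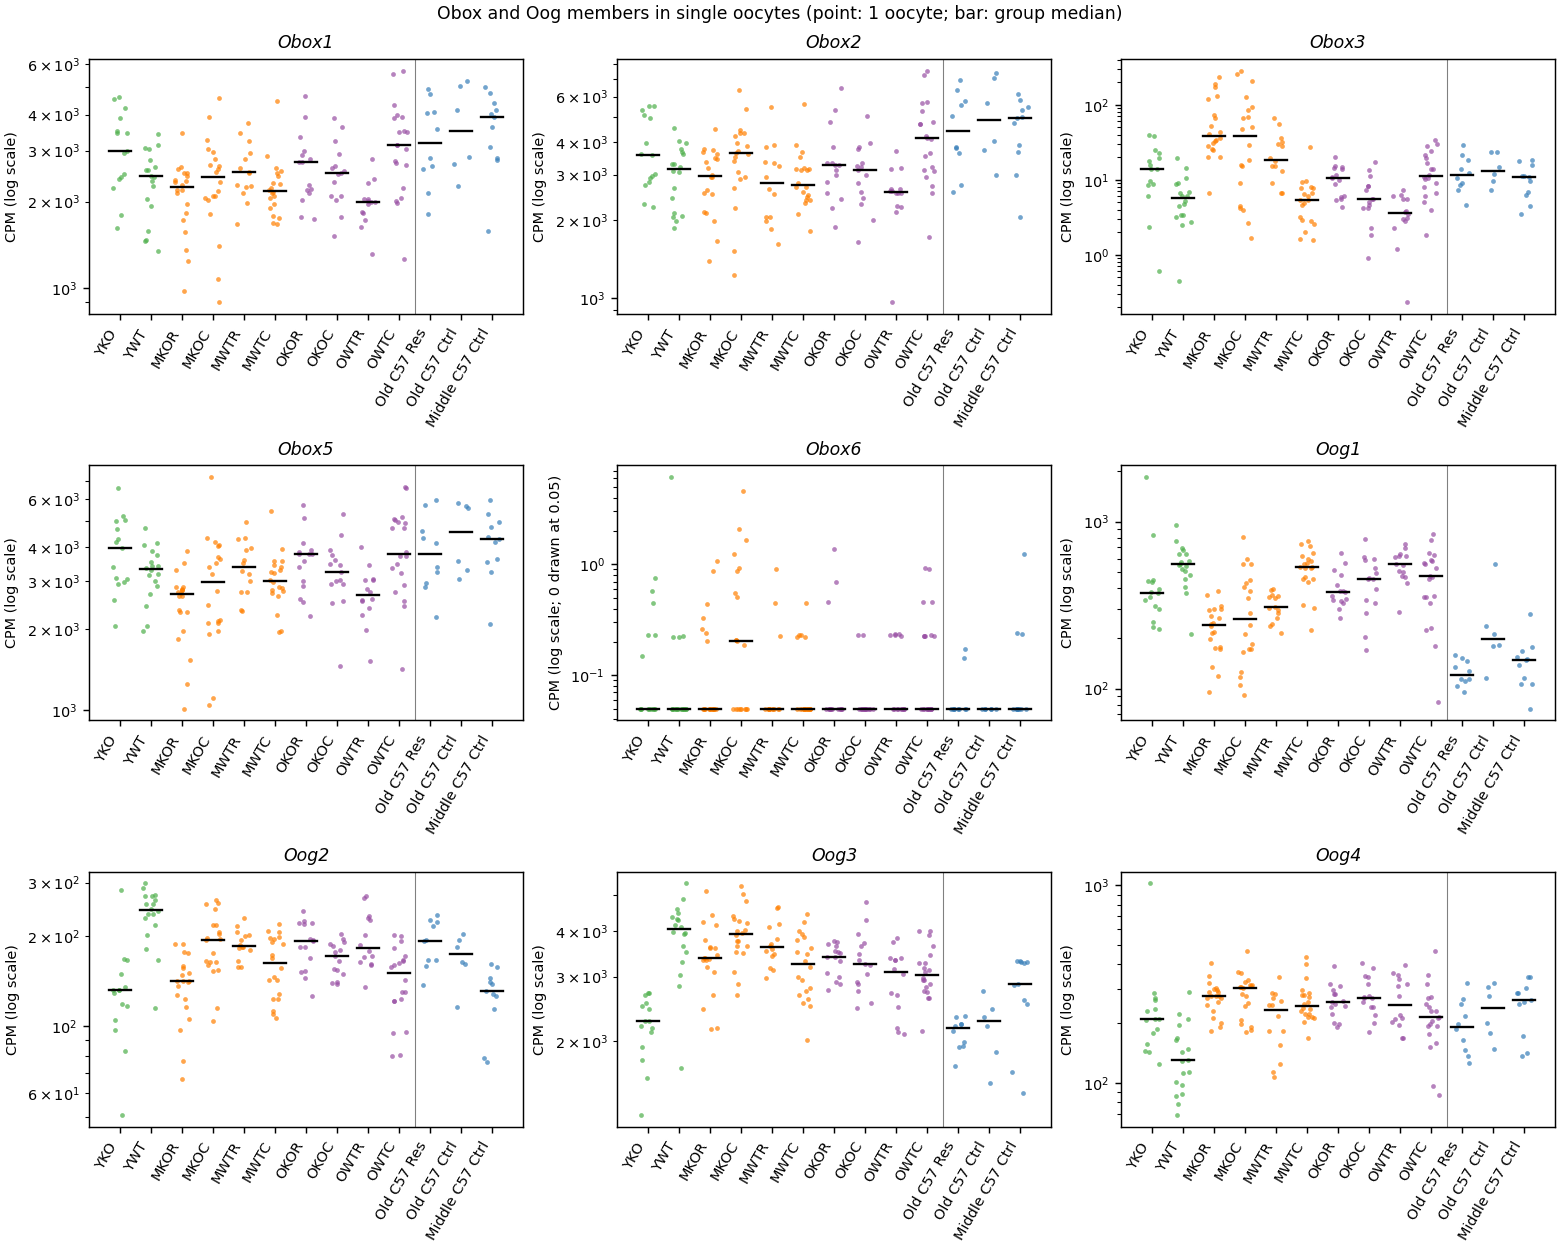
CPM of the members in single oocytes of the 10 groups (points, 1 per oocyte, on a log axis; bars, group medians). Obox3 spans the widest range, and its highest points, 238 and 285 CPM, lie in MKOR and MKOC oocytes. C57BL6 groups stand to the right of the line.

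Obox2, with Obox1 and Obox5 the bulk of the Obox message, overlapped widely between groups. Its CPM (lowest, median and highest oocyte) was 2248, 3571 and 5538 in YKO and 1868, 3148 and 4556 in YWT oocytes. At 6 months it was 1395, 2972 and 4500 in MKOR, 1231, 3624 and 6368 in MKOC, 1624, 2789 and 5453 in MWTR and 1814, 2740 and 5629 in MWTC oocytes. At 10 months it was 1881, 3275 and 6449 in OKOR, 1657, 3128 and 5045 in OKOC, 967, 2569 and 3706 in OWTR and 1718, 4137 and 7555 in OWTC oocytes. All 10 ranges overlapped, with the lowest median in OWTR and the highest in OWTC oocytes. Obox1 medians ran from 1994 CPM in OWTR to 3137 in OWTC oocytes, and Obox5 medians from 2658 in OWTR to 3959 in YKO oocytes.

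Oog3 had the smallest spread of the 9 members. Its CPM was 1256, 2266 and 2708 in YKO oocytes and 1687, 4045 and 5393 in YWT oocytes, the groups with the lowest and the highest median. YKO oocytes stood low and those of YWT high, with an overlap. At 6 months it was 2160, 3380 and 5152 in MKOR, 2677, 3923 and 5296 in MKOC, 2973, 3604 and 4653 in MWTR and 2019, 3253 and 4442 in MWTC oocytes. At 10 months it was 2761, 3384 and 3749 in OKOR, 2465, 3253 and 4786 in OKOC, 2089, 3095 and 3815 in OWTR and 2125, 3035 and 4009 in OWTC oocytes. All YKO oocytes lay below the lowest MWTR and OKOR oocytes, groups that differ from YKO in more than 1 factor, and all other pairs of groups overlapped. Oog2 moved with it, with medians from 132 CPM in YKO to 243 CPM in YWT oocytes. Oog4 had the opposite order in young oocytes, 124, 211 and 1024 CPM in YKO against 68.8, 130 and 290 CPM in YWT oocytes, and its medians in the 8 older groups were 215 to 304 CPM. These per-group differences rest on 1 group each and were not tested alone.

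Obox3, studied in mouse embryos for its part in genome activation, was the most variable member. Its CPM was 0.612, 14.1 and 39.9 in YKO and 0.452, 5.66 and 19.3 in YWT oocytes. At 6 months it was 6.62, 38.5 and 238 in MKOR, 1.66, 38.4 and 285 in MKOC, 6.62, 18.5 and 66.2 in MWTR and 1.57, 5.41 and 26.9 in MWTC oocytes. At 10 months it was 4.31, 10.6 and 20.04 in OKOR, 0.918, 5.53 and 17.0 in OKOC, 0.232, 3.61 and 7.32 in OWTR and 1.83, 11.3 and 34.2 in OWTC oocytes. Over 100 CPM were 5 of 20 MKOR and 4 of 20 MKOC oocytes and 0 oocytes of the other 8 groups, yet no pair of groups was apart in its ranges. In order of median, MKOR and MKOC stood at the top, then MWTR, YKO, OWTC and OKOR, with YWT, OKOC, MWTC and OWTR at the bottom, and each neighbour in that order overlapped the next. The standard deviation of log2(CPM + 1) within groups was 1.16 for Obox3, against a median of 0.309 over 1839 genes at a mean of 100 CPM or more. Its counts are far lower than theirs, so the spread also holds more counting error.

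Oog1, the founding oogenesin, was the other member with wide group differences. Its CPM was 228, 374 and 1847 in YKO and 212, 555 and 950 in YWT oocytes. At 6 months it was 95.9, 239 and 386 in MKOR, 91.1, 261 and 810 in MKOC, 214, 306 and 395 in MWTR and 224, 536 and 763 in MWTC oocytes. At 10 months it was 263, 377.3 and 650 in OKOR, 170.7, 453 and 785 in OKOC, 288, 554 and 734 in OWTR and 82.8, 469 and 843 in OWTC oocytes. The 3 lowest medians, 239, 261 and 306 CPM, belonged to the 6-month groups MKOR, MKOC and MWTR. All 10 ranges overlapped, as did those of each neighbour in the order of medians. The within-group standard deviation of Oog1 was 0.60 on the log2 scale, that of Oog3 0.28.

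The design asks whether age, loss of Tet2 and resveratrol move these messages. Since oocytes are not replicates and no animal is named, the counts of each group were summed and the 10 sums were fitted together, so the error is the departure of the sums from an additive model. Of the 9 members, 0 were called at 10 over 2 months, 0 at 6 over 2 months, 0 at 10 over 6 months, 0 for knockout over wild type, 0 for resveratrol over control and 0 for the resveratrol by genotype interaction (edgeR's quasi-likelihood test, Benjamini-Hochberg adjusted p under 0.05). Of all 20806 genes tested, 0.00481%, 0%, 0.00481%, 0.139%, 0% and 0% were called in the same order. At an unadjusted p under 0.05 stood 1, 1, 2, 2, 0 and 0 of the 9 members, beside 13.5%, 9.16%, 16.6%, 12.9%, 1.74% and 2.57% of all genes, and DESeq2 called 0 members in each. The members' median log2 difference was −0.044, −0.20, 0.065, −0.00014, −0.14 and 0.11, beside 0.023, −0.00047, −0.0014, 0.017, −0.0064 and −0.0022 over all genes.

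Oog1 averaged 373 ± 103 TMM-scaled CPM in knockout sums and 490 ± 106 in wild-type sums (SD, n = 5 each). The fitted log2 difference was −0.42 (SE 0.14, edgeR adjusted p = 0.253), and the value was lower in knockout in 5 of 5 pairs of matched age and treatment, with log2 differences of −0.70 to −0.050. Oog4 averaged 268 ± 11.5 in knockout and 225 ± 44.2 in wild-type sums (n = 5 each), a log2 difference of 0.28 (SE 0.12, edgeR adjusted p = 0.373), higher in 4 of 5 pairs. Obox3 averaged 32.8 ± 30.5 in knockout and 11.5 ± 8.98 in wild-type sums (n = 5 each), with a log2 difference of 1.02 (SE 0.55, edgeR adjusted p = 0.465). Its 5 pairs ran from −1.11 to 3.35 and 4 were higher in knockout. The Obox3 difference is thus far from even across pairs. Obox1 and Obox2 had log2 differences of −0.00014 (SE 0.15) and 0.063 (SE 0.14) between genotypes.

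For age, Obox3 averaged 8.96 ± 4.83 TMM-scaled CPM in the 10-month sums and 40.9 ± 30.2 in the 6-month sums (n = 4 each), a log2 difference of −1.88 (SE 0.64, edgeR adjusted p = 0.205). Oog1 averaged 463 ± 43.4 at 10 months and 348 ± 133 at 6 months (n = 4 each), a log2 difference of 0.48 (SE 0.16, edgeR adjusted p = 0.194). Obox3 was lower in 3 of 4 matched pairs, and Oog1 was higher in 3 of 4. At 6 over 2 months the log2 difference was 1.8 for Obox3 (SE 0.84, edgeR adjusted p = 0.55) and −0.52 for Oog1 (SE 0.20, edgeR adjusted p = 0.514). Oog4 was higher at 10 than at 2 months by 0.41 on the log2 scale (SE 0.18, edgeR adjusted p = 0.355), a value of 0.11 without the YWT sum and 0.71 without the YKO sum. Oog3 was lower at 10 than at 6 months in 4 of 4 pairs, with a log2 difference of −0.14 (SE 0.18). Beside these values, the 11 granulosa markers that could be tested in oocytes had median log2 differences of 2.36 at 6 over 2 months, −2.0 at 10 over 6 months and 1.43 for knockout over wild type, with 0 called by edgeR. Their part in the Obox3 and Oog1 differences was not tested.

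The oocyte columns carry a number before the oocyte's own, whose meaning the labels do not give. With 1 sum per number within a group (26 sums, a fit chosen after seeing the data), the 10 over 6 months difference of Obox3 was −2.04 (edgeR adjusted p = 0.00418), its 6 over 2 months difference 2.08 (edgeR adjusted p = 0.0478) and the 10 over 6 months difference of Oog1 0.56 (edgeR adjusted p = 0.0251). That fit called 2846 of 17859 genes at 10 over 6 months and 629 at 6 over 2 months, and treats the numbers as independent. Within groups the numbers themselves differed: Obox3 was at 15.1, 88.4 and 98.6 CPM in the 3 MKOC sums, and Oog1 at 417, 306 and 236 CPM. The sums hold unequal numbers of oocytes, down to 1 in YWT, and 1 MWTR oocyte has no such number in its column name. Whether a number marks an animal, a plate or a day was not tested.

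For resveratrol, Oog1 averaged 368 ± 121 TMM-scaled CPM on resveratrol and 442 ± 99.8 in controls (n = 4 sums each), with a log2 difference of −0.31 (SE 0.16, edgeR adjusted p = 1.00). Obox2 averaged 2935 ± 464 on resveratrol and 3455 ± 631 in controls (n = 4 each), a log2 difference of −0.23 (SE 0.16). It was lower on resveratrol in 3 of 4 pairs, with −0.73 in 10-month wild-type oocytes the lowest value. Neither difference passed the test. In the interaction the 5 Obox members had log2 values of 0.076 to 0.85 and the 4 Oog members −0.14 to 0.29.

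**Figure D2:**
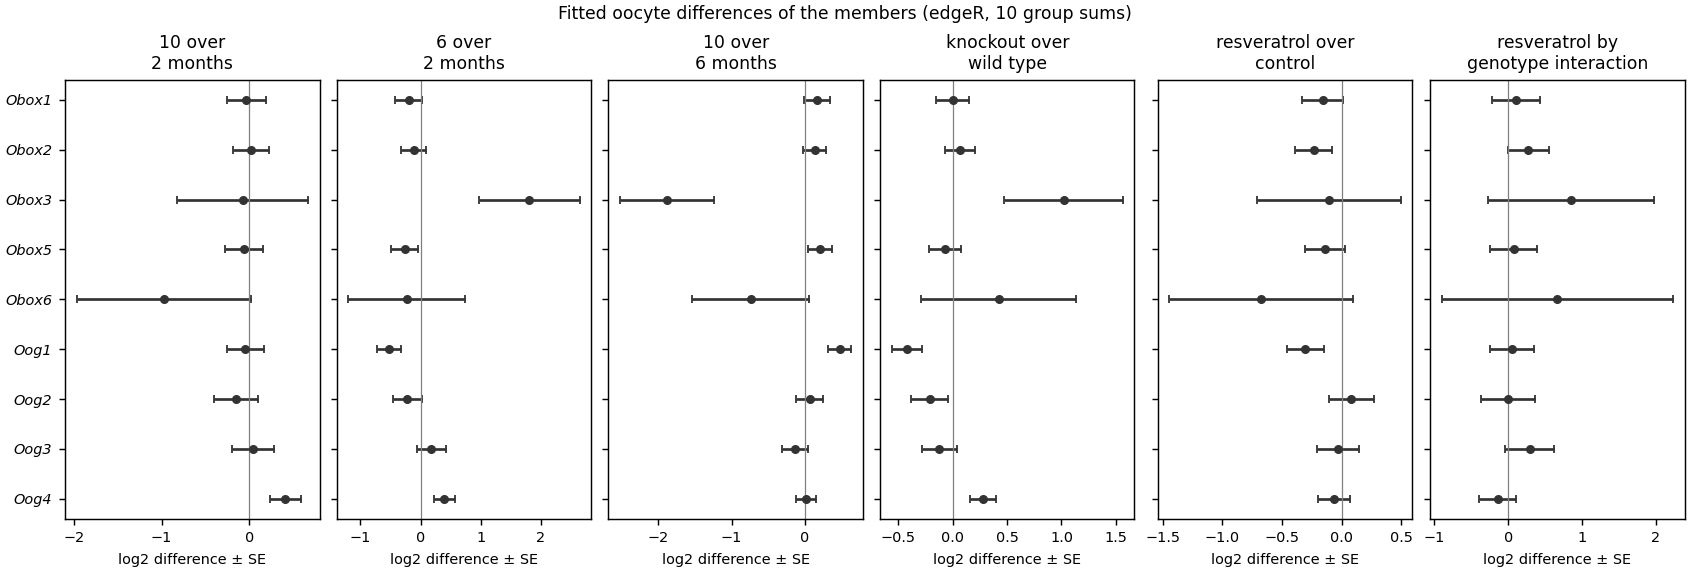
Log2 differences of the members between oocyte sums (points) with their standard errors (bars), by comparison; the tested condition is on top of each ratio. Obox3 has both the largest differences, −1.88 and 1.8, and among the widest errors. The horizontal scale differs between panels.

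Other genes of the same settings were read the same way. None was called in any of the 6 oocyte comparisons among 2 further Obox genes, 7 PRAME-like genes, 6 oocyte transcription factors, 19 oocyte markers and 9 genes of 2-cell genome activation. Between knockout and wild type their median log2 differences were −0.24, 0.14, −0.11, −0.15 and −0.045, beside 0.017 over all genes. Obox7 had 0.037 (SE 0.22), the PRAME-like Pramef12 −0.39 (SE 0.11, edgeR adjusted p = 0.193), Nobox, a homeobox factor of early oocytes, 0.0018 (SE 0.14), and Gdf9, an oocyte growth factor, −0.39 (SE 0.12, edgeR adjusted p = 0.224). At an unadjusted edgeR p under 0.05 stood 8 of 19 oocyte markers at 10 over 6 months, beside 16.6% of all genes. For knockout over wild type 6 of 19 did, beside 12.9%. In the other comparisons 0 to 2 markers did, and 0 to 2 genes of each other list in any comparison.

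From oocyte to oocyte Obox1, Obox2 and Obox5 varied most closely together. Over the oocytes of the 10 groups, with group means subtracted, Pearson's r of log2(CPM + 1) was 0.92 between Obox1 and Obox2, 0.92 between Obox1 and Obox5 and 0.87 between Obox2 and Obox5. The same pairs had 0.98, 0.97 and 0.93 over 27 C57BL6 oocytes. Obox5 shares no 150-base window with the others. Obox7 joined them with 0.85, 0.81 and 0.87. Obox3 did not, with 0.16, 0.19 and 0.046 against Obox1, Obox2 and Obox5, while its promoter holds the 42-base run. Over the C57BL6 oocytes Obox3 had 0.42 with Obox2 and 0.40 with Obox5. Among the Oog genes, Oog2 and Oog3 had 0.72 (C57BL6 0.77), Oog1 and Oog2 0.55 (0.54), Oog1 and Oog3 0.51 (0.26), Oog2 and Oog4 0.49 (0.78), Oog3 and Oog4 0.31 (0.76) and Oog1 and Oog4 0.26 (0.35). The families were not fully apart in this measure, since Oog1 had 0.54 (0.27) with Obox5, 0.32 (0.18) with Obox1 and 0.27 (0.12) with Obox2. Oog4 went the other way, with −0.18 (−0.038), −0.30 (−0.030) and −0.38 (−0.085) against the same genes. Oog2 and Oog3 had −0.024 to 0.24 with them (0.13 to 0.36). The summed Obox and summed Oog levels had 0.17, and each sum had 0.036 and 0.019 with the library total. Points of a pair share their library and its total, so these values are descriptions.

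**Figure D3:**
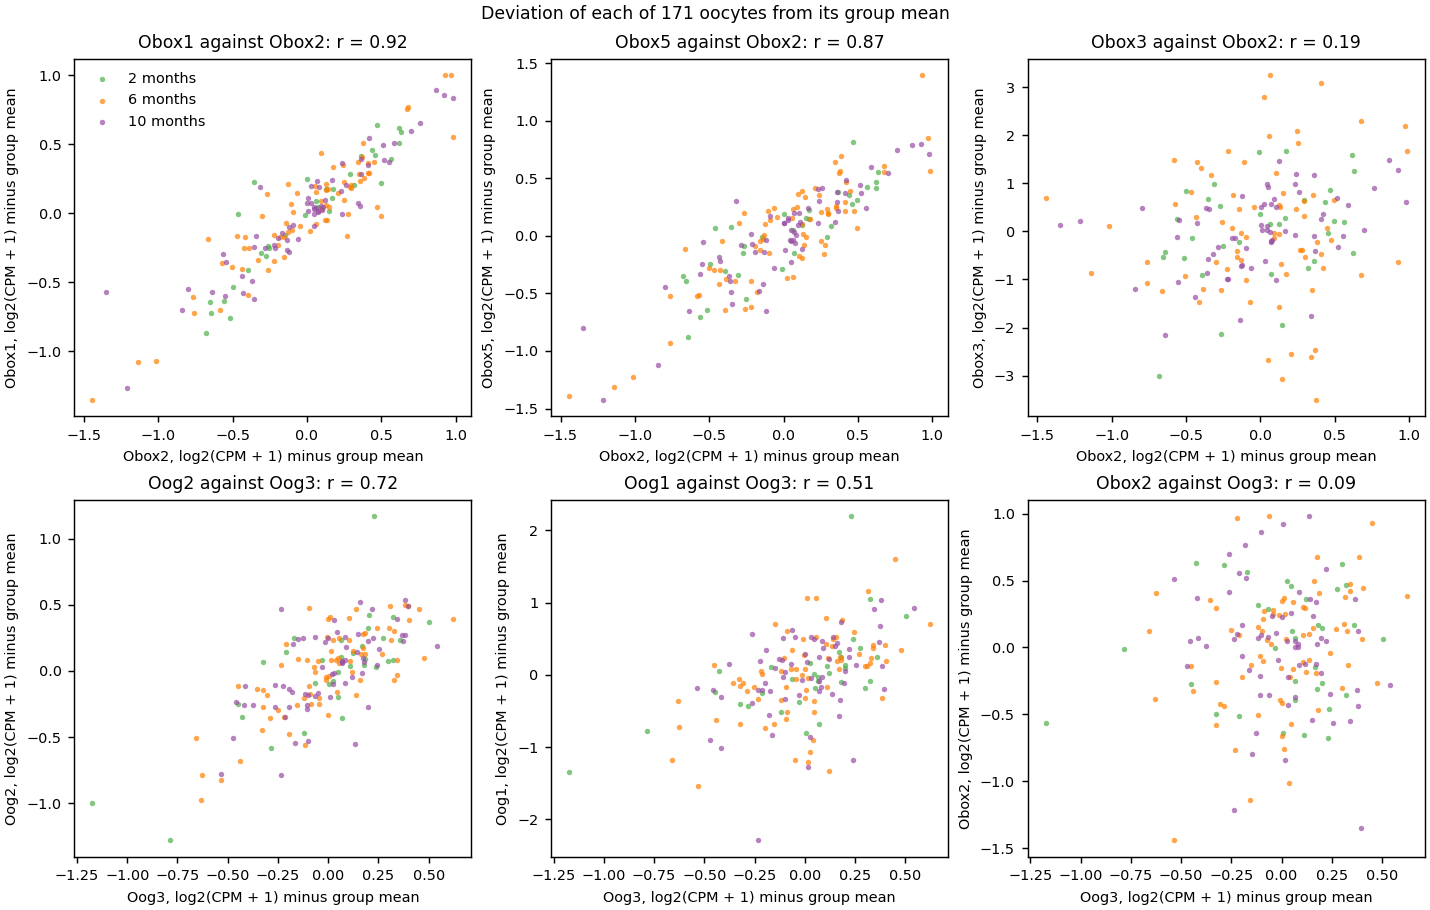
Log2 level of pairs of members in single oocytes as a departure from the group mean, 1 point per oocyte. Obox1 and Obox2 lie along a line (r 0.92), while Obox3 against Obox2 forms a cloud (r 0.19).

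By the same measure over 6162 genes at 10 CPM or more, the genes most like the Obox sum were Obox7 (0.87), Fbxw22 (0.64), Fbxw28 (0.63), Fbxw13 (0.63) and Fbxw14 (0.62), the Fbxw genes being F-box proteins. Those most like the Oog sum were Eif4e (0.70), the cap-binding translation factor, Zfp873 (0.69), Nlrp9c (0.69), Zfp735 (0.69) and Nlrp9a (0.69). Obox3 went instead with the 47 rows of Obox pseudogenes, a comparison made after its values were seen. Its r with their sum was 0.82 over the 10 groups and 0.52 over 27 C57BL6 oocytes. The sum had medians of 129 CPM in MKOR, 109 in MKOC, 55.9 in MWTR and 15.4 in MWTC oocytes, and 56.997 in YKO against 20.99 in YWT oocytes. Obox3-ps6 and Obox3-ps4 had the highest means of the 47 rows, 33.4 and 20.9 CPM over the 10 groups, beside 24.7 CPM for Obox3. The pseudogene that shares exact windows with Obox3, Obox3-ps3, reached r of 0.27. Its median was 0 and its highest value 2.00 CPM, so counting error weighs on this r and it cannot decide whether the pair move together. Whether Obox3 counts hold pseudogene reads was not tested. Levels of Oog1 went with the granulosa list at r −0.44 over the 10 groups and 0.011 over the C57BL6 oocytes. That list's sum, to which Serpine2 gave a median of 1531 CPM, had its highest medians in MKOR (2040 CPM) and MKOC (1812 CPM) oocytes.

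Granulosa cells are somatic, and per the labels' protocol they passed a strainer to remove oocytes, so members' counts in them are set beside those of oocyte markers. The 12 old pools together held 3 counts of Obox1, 1 of Obox2, 3 of Obox5 and 3 of Oog3. Counts of Obox1 were 7, 0 and 21 in the 3 young knockout-labelled pools and 14, 5 and 5 in the young wild-type pools. Counts of Oog3 were 12, 0 and 18 in young knockout-labelled and 28, 5 and 10 in young wild-type pools. Obox2 gave 7, 0 and 16 beside 16, 6 and 10, and Obox5 6, 0 and 11 beside 21, 6 and 11. These messages were thus near 0 in old pools and present in 5 of 6 young pools. The 0 in each case is knockout-labelled pool 2, the only young pool of full depth (11595710 counts). The 12 old pools held 5995491 to 20537935 counts and the other 5 young pools 470647 to 749172, so age and depth coincide in all but that 1 pool and cannot be told apart.

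**Figure D4:**
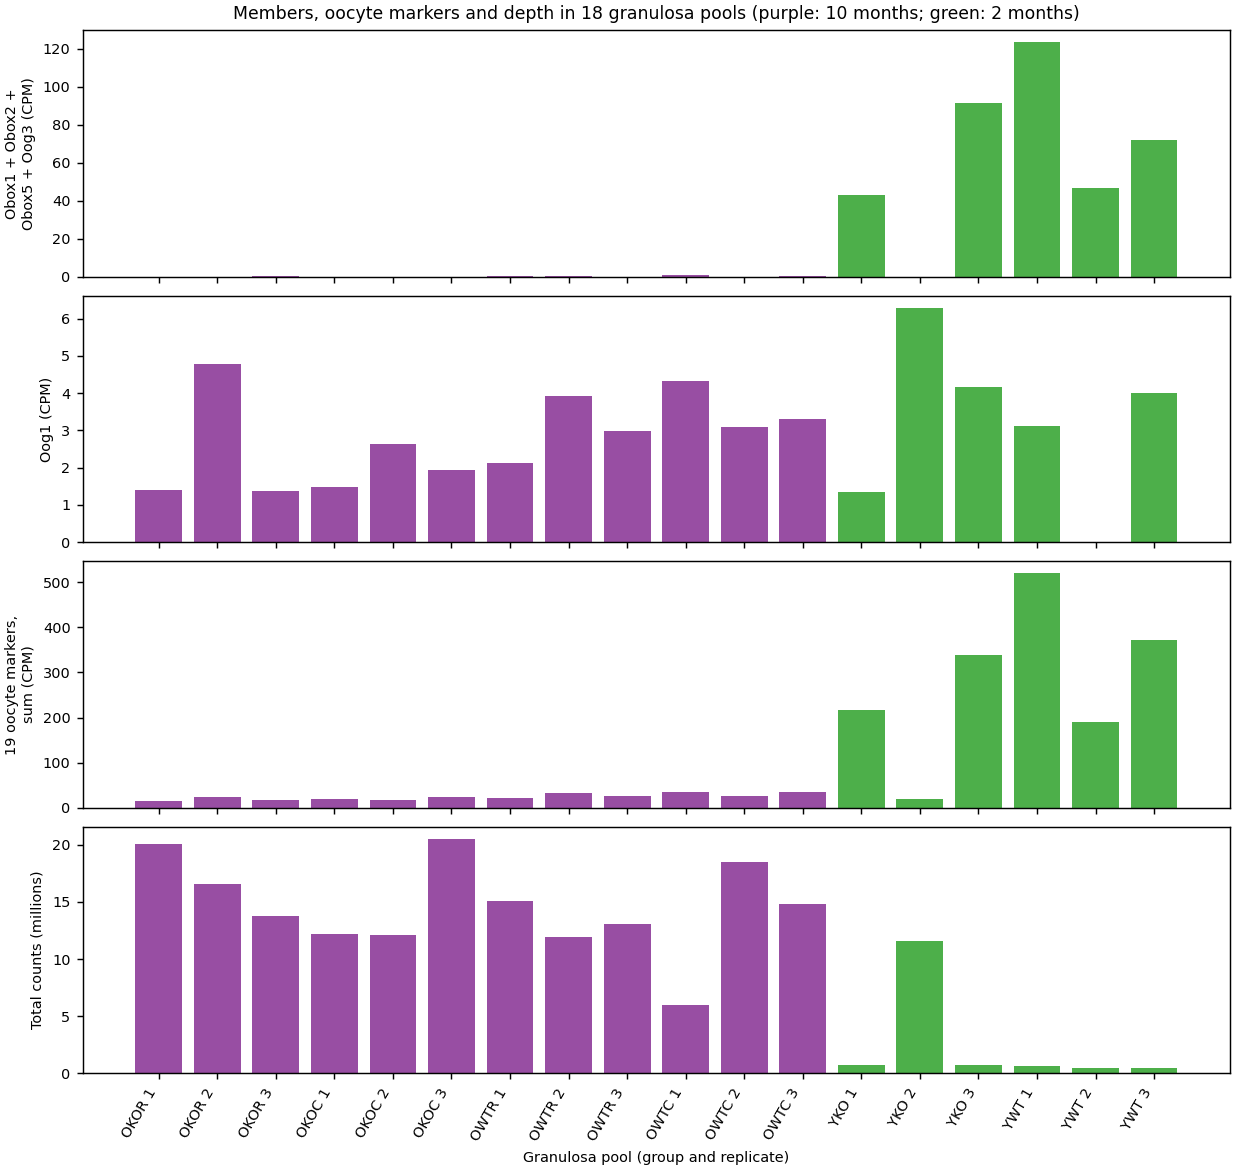
Bars give, for each of the 18 granulosa pools, the summed CPM of Obox1, Obox2, Obox5 and Oog3, the CPM of Oog1, the summed CPM of 19 oocyte markers and the total count. The 4-gene sum is 0 to 1.00 CPM in the 12 old pools and 42.7 to 123 CPM in the 5 shallow young pools, while Oog1 stays between 0 and 6.30 CPM in all 18.

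Only 5 members (Obox1, Obox2, Obox5, Oog1 and Oog3) passed the filter on low counts, and Obox1, Obox2, Obox5 and Oog3 passed through the young pools alone, where they are high, so their count is a description. At 10 over 2 months, 4 of 5 were lower in old knockout-labelled controls (all genes lower 1.08%, called 5.17% of 17558) and 4 of 5 in old wild-type controls (all genes lower 0.683%, called 1.53%). In the knockout-labelled pools old controls had 0 counts of each of the 4. With 3 counts over the group as floor, Obox1 was at least 32.0-fold lower than in young pools, Obox2 26.3-fold, Obox5 19.5-fold and Oog3 34.3-fold. These bounds rest on single young pools. Without the deep young pool 2, which itself had 0 counts of the 4 genes, they were 284.6, 234, 173 and 305-fold, and without young pool 3 they were 8.48, 8.48, 7.27 and 14.5-fold. In wild type the counts were 1 in old against 24 in young pools for Obox1, a ratio of young to old of 585 per count sequenced (95% counting interval 95.5 to 24075). For Oog3 they were 3 against 43, a ratio of young to old of 350 (112 to 1762). Old control pool 1, the shallowest old pool, held 6 of the 7 old counts of the 4 genes. Without it the Oog3 ratio was 889 (151 to 35916), while Obox1 had 0 old counts and was at least 165-fold lower in old pools. Leaving out single other pools gave ratios of 310 to 672 for Obox1 and of 185 to 436 for Oog3. Leaving out any 1 of the 6 wild-type pools left 0 members called by edgeR. In the knockout-labelled pools, leaving out young pool 3 left 0 and old control pool 1 left 2, and leaving out the deep young pool 2 left 4. With every pool thinned to 470647 counts, Obox2 was the 1 member that still passed the filter, and it was called in wild-type but not in knockout-labelled pools. In those thinned counts the 4 genes together had 19 to 65 counts in the 5 shallow young pools, against 0 in the deep young pool and in each of the 12 old pools.

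Oocyte markers moved alongside. Of 16 tested, 9 were lower at 10 months in knockout-labelled pools (H1foo, Tcl1, Bmp15 and Gdf9 by lowest p), beside 1.08% of all genes. In wild-type pools 7 were lower (Tcl1, Gdf9, H1foo and Oas1d by lowest p), beside 0.683% of all genes. Of the 19 markers, 14 to 18 had a count in a shallow young pool, against 6 to 13 in an old pool. Their calls are therefore a description too, and whether they hold with a pool left out was not tested. The 19 markers summed to 14.1 to 34.03 CPM in the 12 old pools, 19.7 CPM in the deep young pool and 189 to 520 CPM in the other 5 young pools. Leukocyte markers moved too, with 5 of 8 called higher at 10 months in knockout-labelled pools and 0 of 8 in wild-type pools. Of all genes, 5.17% and 1.53% were called in either direction. All 8 had log2 differences above 0 in both, with medians of 2.27 and 5.22. They held 0.000692% to 0.00255% of counts in the shallow young pools. In the deep young pool they held 0.0785%, within the 0.00706% to 0.147% of the old pools. Their part in the result was not tested. Fewer cells with the RNA and less RNA per cell cannot be told apart in such pools. Other granulosa comparisons called 0 of the 5 members (edgeR, 0 at an unadjusted p under 0.05; DESeq2 also 0), where 0.0285% of all genes were called for resveratrol in knockout-labelled pools, 1.62% for resveratrol in wild type, 0.114% for the knockout label at 2 months, 3.86% for the knockout label in 10-month controls, 0.137% for the age by label interaction and 0.159% for the resveratrol by label interaction. At an unadjusted p under 0.05 stood 3.52% to 17.6% of all genes in these 6 comparisons. Obox1, Obox2 and Oog3 had 0 counts in both old knockout-labelled groups, so resveratrol there could give no call for them. With counts near 0 in old pools, comparisons that use those pools cannot decide for Obox1, Obox2, Obox5 and Oog3.

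Oog1 behaved differently in the pools, and the split that follows was made after its values were seen. Its level was 1.38 to 4.78 CPM in the 12 old pools (466 counts, in 12 of 12 pools), 6.30 CPM in the deep young pool (73 counts, 95% Wilson interval 5.01 to 7.91) and 0 to 4.15 CPM in the 5 shallow young pools (8 counts in all). The 4 abundant members together were at 0 to 1.00 CPM in the old pools (10 counts), at 0 in the deep young pool and at 42.7 to 123 CPM in the shallow pools (235 counts). Oog1 thus did not follow them. The ratio of Oog1 to Oog3 counts was 0.131 in the median oocyte (0.0248 to 0.728 over the main set) and 0.11 in the shallow pools summed, but 155 in the old pools summed. In the shallow pools summed, Obox1 over Obox2 was 0.945 (median oocyte 0.758, range 0.616 to 1.36). Oog3 over Obox2 was 1.33 there (median oocyte 1.08, range 0.322 to 3.95). Both ratios lie within the oocyte ranges, but the ranges are wide and the counts few. Where these messages came from was not tested by this. At 10 over 2 months Oog1 had a log2 difference of −1.06 in knockout-labelled pools (edgeR adjusted p = 0.333) and 0.46 in wild-type pools (edgeR adjusted p = 0.823). Which locus gave the Oog1 reads of the pools was not tested, beside the 88.4% of its windows held by Gm2042, which has no row of its own.

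The remaining members were near the limit of counting in the pools. Obox6 had 0 counts in 18 of 18 pools. Obox3 had 4 counts in the old pools and 0 in the young, Oog2 1 and 4, and Oog4 0 and 3. A count of 0 in the deep young pool allows up to 0.259 CPM (3 counts). Intervals and floors cover counting error only, since reads amplified by PCR without molecular identifiers are not independent molecules.

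In C57BL6 oocytes 1 sum per group allows no test. Oog1 was at 95.8, 121 and 159 CPM (lowest, median and highest) in 10 oocytes on resveratrol at 10 months, against 115, 197 and 555 CPM in 6 controls of that age. The ranges overlapped, and the log2 ratio of the sums was −0.95 (95% counting interval −0.996 to −0.909). Controls at 6 months had 75.8, 149 and 279 CPM, and the ratio of 10 over 6 months was 0.68 (0.64 to 0.73). Of the 8 members at 10 CPM or more, 0 reached 2-fold higher or lower in either comparison. Among all genes at that level 0.779% were 2-fold or more higher and 0.336% lower on resveratrol, and 7.04% higher and 2.13% lower at 10 over 6 months. Oog1 on resveratrol passed 2-fold when control oocyte 1, 3 or 6 was left out, and its ratio was −0.65 without control oocyte 5, which held the 555 CPM. Oog4 had a log2 ratio of −0.41 on resveratrol, with 127, 192 and 320 CPM on resveratrol against 148, 239 and 321 CPM in controls. Obox1, Obox2, Obox3 and Obox5 had resveratrol ratios of −0.20 to −0.10. At 10 over 6 months Obox3 had 0.65, Oog2 0.44 and Oog3 −0.33, and no oocyte ranges were apart.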

How the data were processed

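For 217 libraries the authors deposited raw counts of reads for each of 53619 genes. Tools listed by the submitters' processing notes are HISAT2 2.1.0, featureCounts and DESeq2, with build mm10 and no roles. Whether counting used strand, and how reads of near-identical genes were assigned, are not given in the sources used here. The number of unused sample columns was 0. Titles set the groups, also for 18 young wild-type oocytes with a contradicting knockout tag, and the labels disagree on the number of cells per granulosa pool.

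CPM scales counts to the same total in every library. The 10 oocyte group sums were fitted with additive terms for age, genotype and treatment (20806 genes, 5 residual degrees of freedom, 4 with the interaction), and the 18 granulosa pools a model of group means (17558 genes, 12 residual degrees of freedom). Both used edgeR 4.0.16 in R 4.3.3: the quasi-likelihood test, TMM factors, filterByExpr with a minimum count of 10 and Benjamini-Hochberg adjustment over all genes tested at 0.05. Simulated data were used for resveratrol in wild-type granulosa pools and for knockout in oocytes, but not for the interaction fit. The oocyte simulation held less spread than the data, so it does not show what size of difference the oocyte fit could detect. No animal is named for the pools, and their p-values reflect the spread among these libraries alone, possibly a technical one. C57BL6 ratios are of sums, with exact conditional Poisson intervals. Correlations use log2(CPM + 1). All 9 members are named, and from each further list up to 4 called genes by lowest p, otherwise up to 2 by mean CPM. The members and lists were chosen with earlier results of these data known. Alternatives covered DESeq2 1.42.0, RLE factors, no filter, thinning to 1 depth, left-out libraries or sums and the replicate block.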

Additional observations from a re-analysis of the deposited data

Results flagged for a closer look

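In the 6 C57BL6 control oocytes of 10 months, 1 oocyte stood far above the others in Oog1. It had 555 CPM and the next 237 CPM, and that gap was 0.723 of the whole range of the group, above the 95% critical value of Dixon's ratio for 6 values. The ratio was computed in 17 groups of values and this was the 1 found, and it marks about 1 in 20 by chance. The log2 ratio of Oog1 on resveratrol over control, −0.95 with this oocyte, was −0.65 without it, and between −1.04 and −0.911 without any other 1 oocyte of the 2 groups.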

How the results depend on the processing

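No member was called in oocytes, nor with RLE factors, DESeq2, no filter, thinning or any 1 sum left out. Sums per number in the column name, chosen after seeing the data, called 1 member at 6 over 2 months and 2 at 10 over 6 months. Of the 17859 genes in that fit, 629 and 2846 were called in the same comparisons. It called no member at 10 over 2 months or for knockout, where 2213 and 1507 genes were called. In granulosa pools, the 4 members lower at 10 months in wild type became 1 with DESeq2 and 0 to 0 with a pool left out, and the 4 in knockout-labelled pools 0 to 4 with a pool left out. With every pool thinned to 470647 counts, 1 member (Obox2) was left to test, so the counts of 1 in wild-type and 0 in knockout-labelled pools also reflect members that were no longer tested. A replicate block left 4 and 4, and same-numbered pools did not deviate together (18 correlations, −0.122 to 0.0824, none over 0.1). RLE factors moved the median of all genes by −0.11 (wild type) and −0.10 (knockout-labelled) in the age comparisons, and the share of called genes that were higher to 37.4% against 55.2% and to 65.7% against 79.2%. Counts of all called genes ranged from 60 to 785 (268 as reported) for age in wild type and 343 to 1397 (908) in knockout-labelled pools, from 3 to 914 (285) for resveratrol in wild-type pools (107 with the block), 0 to 132 (5) for it in knockout-labelled pools, 8 to 215 (20) and 168 to 1041 (678) for the label at 2 and 10 months, and 14 to 129 (24) and 1 to 252 (28) for the interactions. In oocytes they were 0 to 2213 (1), 0 to 629 (0) and 0 to 2846 (1) for 10 over 2, 6 over 2 and 10 over 6 months, 0 to 1507 (29) for knockout, 0 to 14 (0) for resveratrol and 0 to 20 (0) for the interaction.

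Values under no call changed sign in 100 of 810 oocyte and 13 of 468 granulosa repeats, the largest as reported being 0.98 and 1.51; none had passed a test and the cause was not tested. Log2 ranges with 1 oocyte sum left out were as follows. At 10 over 2 months they were −0.26 to 0.16 for Obox1, −0.25 to 0.16 for Obox2, −1.65 to 0.33 for Obox3, −0.24 to 0.10 for Obox5, −1.83 to 0.15 for Obox6, −0.14 to 0.16 for Oog1, −0.58 to 0.30 for Oog2 and −0.43 to 0.58 for Oog3. At 6 over 2 months they were −1.77 to 0.78 for Obox6, −0.62 to 0.25 for Oog2 and −0.28 to 0.73 for Oog3, and at 10 over 6 months −0.049 to 0.24 for Obox2, −1.26 to 0.23 for Obox6, −0.056 to 0.20 for Oog2 and −0.069 to 0.11 for Oog4. For knockout over wild type they were −0.12 to 0.13 for Obox1, −0.031 to 0.21 for Obox2, −0.19 to 0.057 for Obox5, −0.41 to 0.84 for Obox6 and −0.21 to 0.056 for Oog3. For resveratrol they were −0.56 to 0.92 for Obox3, −0.31 to 0.0072 for Obox5, −1.11 to 0.61 for Obox6, −0.054 to 0.19 for Oog2, −0.12 to 0.064 for Oog3 and −0.13 to 0.026 for Oog4. For the interaction they were −0.34 to 0.60 for Obox1, −0.033 to 0.59 for Obox2, −0.67 to 1.6 for Obox3, −0.37 to 0.56 for Obox5, −0.11 to 2.27 for Obox6, −0.22 to 0.27 for Oog1, −0.35 to 0.27 for Oog2, −0.052 to 0.52 for Oog3 and −0.29 to 0.064 for Oog4. Of the values that kept their sign, those for Oog4 ran from 0.11 to 0.71 at 10 over 2 months, 0.10 to 0.70 at 6 over 2 months and 0.14 to 0.35 between genotypes. Those for Obox3 ran from 1.07 to 2.51 at 6 over 2 months, −2.72 to −1.58 at 10 over 6 months and 0.67 to 1.84 between genotypes, and those for Oog1 from −0.78 to −0.46, 0.37 to 0.64 and −0.53 to −0.28 in the same comparisons. For resveratrol they were −0.44 to −0.13 for Oog1 and −0.33 to −0.060 for Obox2, and at 10 over 6 months −0.23 to −0.057 for Oog3. With a pool left out, granulosa ranges were −1.79 to 0.44 for Obox1 (label, 2 months), −2.16 to 0.22, −1.44 to 0.96 and −1.66 to 1.66 for Obox1, Obox2 and Obox5 (age by label), and for Oog1 −0.079 to 0.92 (age, wild type), −0.32 to 0.14 and −0.51 to 0.58 (resveratrol, wild type and knockout-labelled) and −0.49 to 0.62 (resveratrol by label).

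Other settings that turned a sign were RLE, with −0.00074 for Obox2 at 10 over 2 and −0.0064 for Oog4 at 10 over 6 months, DESeq2, with −0.0045 for Oog4 at 10 over 6 months, no filter (0.0042 for Oog2, interaction) and thinning (0.24 for Obox6 at 6 over 2 months and 0.86 for Obox2, granulosa age by label). Sums per column number gave 0.13 for Obox1, 0.043 for Obox3, 0.069 for Obox5, 0.016 for Oog1 and −0.020 for Oog3 at 10 over 2 months, 0.11 for Obox2 and 0.21 for Obox6 at 6 over 2 months, 0.025 for Obox1 between genotypes, and −0.18, −0.11, −0.17 and −0.093 for Obox1, Obox2, Obox5 and Oog1 in the interaction.

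In C57BL6 oocytes the small ratios changed sign in 22 of 296 repeats. For resveratrol Obox2 reached 0.020 and Obox3 0.070 with 1 oocyte left out. At 10 over 6 months Obox1 reached −0.17 and Obox2 −0.030 on group medians, and Obox5 −0.023 with 1 oocyte left out. Depth also limits the granulosa values, where a count of 0 allows 4.00 to 6.37 CPM in the 5 shallow young pools and at most 0.50 CPM in the others.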

Other observations

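A C57BL6 oocyte whose title names resveratrol while its treatment tag names control entered no group. It had 3627 CPM of Obox1, 4955 of Obox2, 3564 of Obox5 and 6.55 of Obox3, and 0 counts of Obox6 among 5646368. Oog3 was at 1727 CPM, Oog2 at 194, Oog4 at 119 and Oog1 at 115 CPM. The 9 genes together made up 14308 CPM.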
